A study of Sus scrofa with 96 samples.

Results

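The genes described here are those that were abundant in liver and in testis of the same boars. They were chosen by measured level. A gene was a member when its median was 200 CPM (a read count scaled to the total of its library on genes) or more over the stranded mRNA livers and also over the stranded mRNA testes, and when the standard deviation (SD) of log2(CPM + 0.5) over those livers was below 1. A block of consecutive Ensembl identifiers was left out, as were genes whose median log2 level in testis differed by 1.5 or more between total RNA and stranded mRNA libraries. The rule found 161 of 25322 genes. A gene symbol was given for 91 of the 161, and the other 70 are named by Ensembl identifier.

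RNA-Seq had been performed on liver and testis of 48 commercial Danish Landrace boars. By genetic merit of boar taint (BT) they fell into groups of 16 pigs, named high, medium and low BT. BT is the unpleasant smell that heated meat of some entire males gives off. Merit was defined by breeding values of the sire, no measurement of BT in the pigs themselves was used, and pigs of a group could share a sire. All pigs were non-castrated, of the same breed and at slaughter weight, and testis was sampled later after slaughter than liver. Stranded mRNA libraries were made from 46 livers (15 high, 16 medium and 15 low BT) and 34 testes (14 high, 13 medium and 7 low BT), and 34 pigs had both. The remaining samples had RNA of lower integrity and went into total RNA libraries, which form batch 3. The stranded mRNA livers were all in batch 1, whereas high BT testes were in batch 2, low BT testes in batch 1, and medium BT testes in both (7 in batch 1 and 6 in batch 2).

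Genes that are abundant in tissues as unlike as liver and testis are mostly those that every cell needs. Ribosomal proteins and translation factors build and run the machinery of protein synthesis, and their mRNAs are among the most abundant of growing or secreting cells. Chaperones fold new proteins in the cytosol, the endoplasmic reticulum and the mitochondrion. Hepatocytes use this machinery to secrete plasma proteins, and testis uses it in the many divisions of spermatogenesis. Other genes are abundant in both organs for reasons of their own, such as ferritin in iron storage, or cytochrome b5, which serves drug metabolism in liver and androgen synthesis in Leydig cells.

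Reads on genes ranged from 3728775 to 12156143 in the stranded mRNA livers and from 4881825 to 18045966 in the stranded mRNA testes. Hepatocyte markers (15 measured) took 9.63% to 28.3% of the reads in these livers and at most 0.0917% in the testes, and germ cell markers (16 measured) took 2.83% to 5.68% in 33 of the 34 testes. The remaining testis, a medium BT library of batch 1, stood apart. The median of its correlations with the 33 others was 0.521, whereas theirs lay between 0.966 and 0.981. Germ cell markers took 0.0979% of its reads and Leydig cell markers 0.00596%, against 0.165% to 1.63% for Leydig cell markers in the others. Blood and immune cell markers took 2.22% (others 0.00264% to 0.0459%) and endothelial and stromal markers 2.65% (others 0.0226% to 0.112%). Testis ranges, SDs and ratios below include this library unless stated. No liver stood apart, with median correlations of 0.931 to 0.964.

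The members took a median of 12.7% of the reads in stranded mRNA livers (9.11% to 20.4%) and 10.7% in stranded mRNA testes (9.19% to 24.1%). The upper end in testis was the library that stood apart, and the other 33 ranged from 9.19% to 12.5%. Among the lists of genes examined, the cytosolic ribosomal proteins held the most members. Of 28 ribosomal proteins with a symbol in the files, 23 were members. Of 26 translation factors 9 were members, as were 10 of 29 chaperones. The cytoskeleton list gave 5 of 20 (ACTB, ACTG1, ARPC3, TMSB4X and TMSB10) and the nuclear-coded respiratory chain and ATP synthase gave 4 of 44 (ATP5F1A, ATP5PO, COX4I1 and COX5B). In addition, 3 genes each came from the antioxidant list of 17 (FTL, PRDX3 and SOD1) and the splicing and RNA binding list of 22 (HNRNPK, PCBP2 and YBX1). The steroid and cholesterol list of 30 gave 2 (CYB5A and HMGCS1), and UBB, SSR3 and IDH1 were each the single member of the ubiquitin, protein export and glycolysis lists. No hepatocyte, germ cell, Leydig cell, blood or stromal marker was a member, and of the Sertoli cell markers CLU was a member. The remaining 98 members were on no list. Lists were matched by symbol, so the 70 members without a symbol are all among these 98. The counts per list may therefore be too low, for the ribosomal proteins and for other families.

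**Figure D1:**
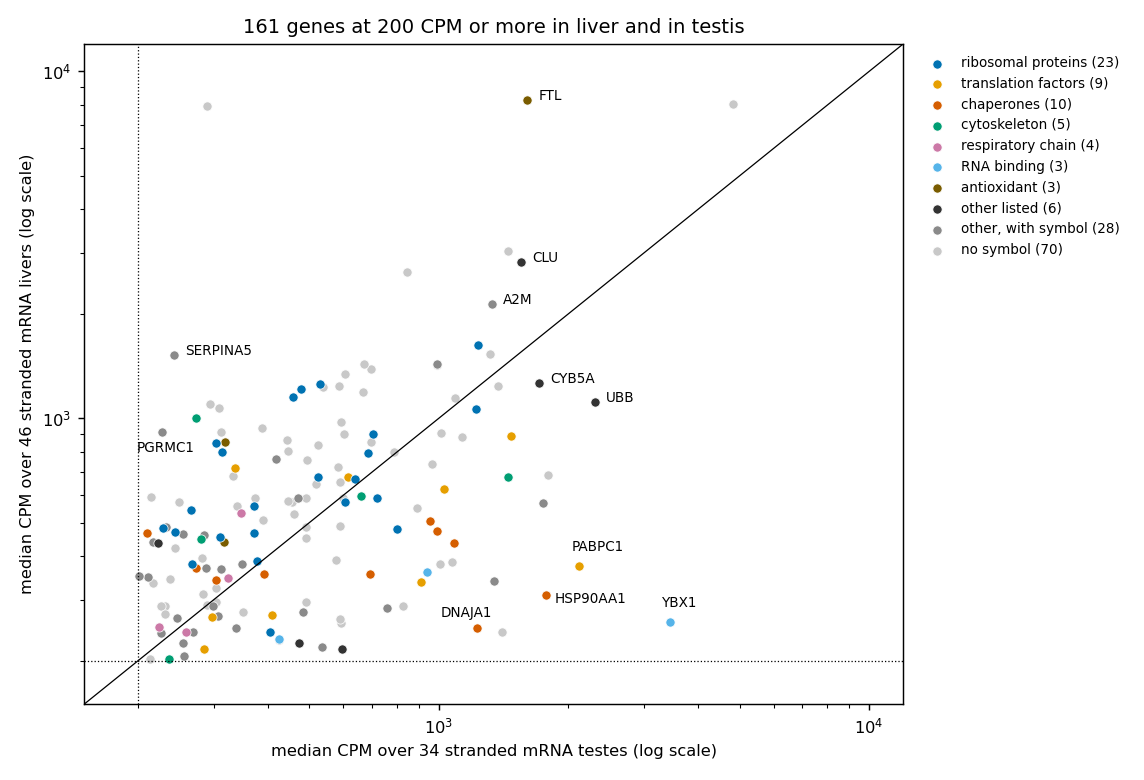
Median CPM of each of the 161 genes over 34 stranded mRNA testes (x axis, log scale) and 46 stranded mRNA livers (y axis, log scale), coloured by gene list with the number of members in brackets. The dotted lines mark 200 CPM and the diagonal marks equal levels. FTL lies highest among the named genes in liver at 8300 CPM and YBX1 farthest to the right of the named genes at 3440 CPM.

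The 10 members with the highest CPM in their lower tissue were led by ENSSSCG00000004489, which ranged from 3828 to 12386 CPM in liver (median 8074) and from 4105 to 25145 CPM in testis (median 4836). Its highest testis value was that of the library that stood apart. FTL, the ferritin light chain that stores iron, ranged from 4904 to 13296 CPM in liver (median 8300) and from 858 to 4183 CPM in testis (median 1608). The ranges did not overlap, and FTL was higher in liver in 34 of 34 pigs. CLU, a secreted chaperone that Sertoli cells also make, had medians of 2821 CPM in liver (1818 to 4160) and 1554 CPM in testis (815 to 3144). A2M, a secreted protease inhibitor, had medians of 2135 and 1331 CPM and the wide ranges of 943 to 10337 CPM in liver and 282 to 3135 CPM in testis, where the lowest of the 33 testes without the library that stood apart was 396 CPM. CYB5A, cytochrome b5, was the reverse of these by medians, at 1260 CPM in liver (693 to 4372) and 1714 CPM in testis (264 to 5598, or from 924 without that library). UBB, a polyubiquitin gene, had 1118 CPM in liver (536 to 1581) and 2309 CPM in testis (1970 to 2937), so that every testis was above every liver. RPS3A, a protein of the small ribosomal subunit, had 1627 CPM in liver and 1230 CPM in testis. The other 3 were ENSSSCG00000014540, ENSSSCG00000029642 and ENSSSCG00000022842, with medians of 1235 to 3028 CPM in liver and 1314 to 1452 CPM in testis. CPM takes no account of transcript length, so this order is an order by share of reads and not by number of transcripts. Several of these families, the ribosomal proteins and ferritin above all, have near-identical copies elsewhere in the genome, and reads that fit several places were not counted, so their levels may be understated.

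At the edges of the rule, TSPAN3 (201 CPM in testis) and ARPC3 (203 CPM in liver) lay just inside the CPM limit and DDX3X (198 CPM in liver) just outside it. HMGCS1 (SD 0.79 over livers) and HSP90AA1 (0.78) were the named genes nearest to the SD limit, although ENSSSCG00000011466 was nearer (0.91). DHRS4 (1.15) was the single gene left out by that limit. The kit limit left out ENSSSCG00000025162 alone, at −5.60 on the log2 scale, and the members nearest to it were A2M (1.12) and EIF1 (−0.97). The identifier block removed 14 genes.

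Levels in liver and testis were then set side by side within each of the 34 pigs, as the mean log2 ratio of liver to testis CPM (± SD over pigs). The rule used these levels, so the ratios are a description without a test. The median ratio over members was 0.16, against −0.79 over the 11390 genes tested in both tissues. Of the 161 members 95 had a ratio above 0 and 66 below, and 116 lay within 1 log2 unit of 0. In 9 members liver was higher in every pig and in 21 testis was higher in every pig. Counts by pig were made on the CPM scale alone and not over all genes, so they do not set members apart. The split depends on the scaling. With TMM factors (trimmed mean of M values, which scale libraries on the bulk of genes) the median over members was 1.23 and that over all genes 0.16, and 142 of 161 ratios were above 0, 47 having changed sign. Directions between tissues are therefore given on the CPM scale, beside the median of all genes.

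The ribosomal protein members had a median ratio of 0.33, with 16 above 0 and 7 below (all 23 above 0 with TMM factors). They ranged from RPL14 at 1.34 to RPLP2 at −0.80, so that mRNA ratios within this family differed by more than 2 log2 units. These are ratios of reads and not of protein. The part in this of reads that fit several places, which were not counted, was not tested. Chaperones had a median of −0.91, with 3 of 10 above 0 (7 with TMM factors), and translation factors a median of −0.66, with 2 of 9 above 0 (7 with TMM factors). The 3 antioxidant members were all above 0 (median 1.40) and the 3 RNA binding members all below (median −1.37, of which 1 was above 0 with TMM factors). The 4 respiratory chain members lay from −0.01 to 0.61, and from 1.05 to 1.67 with TMM factors.

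**Figure D2:**
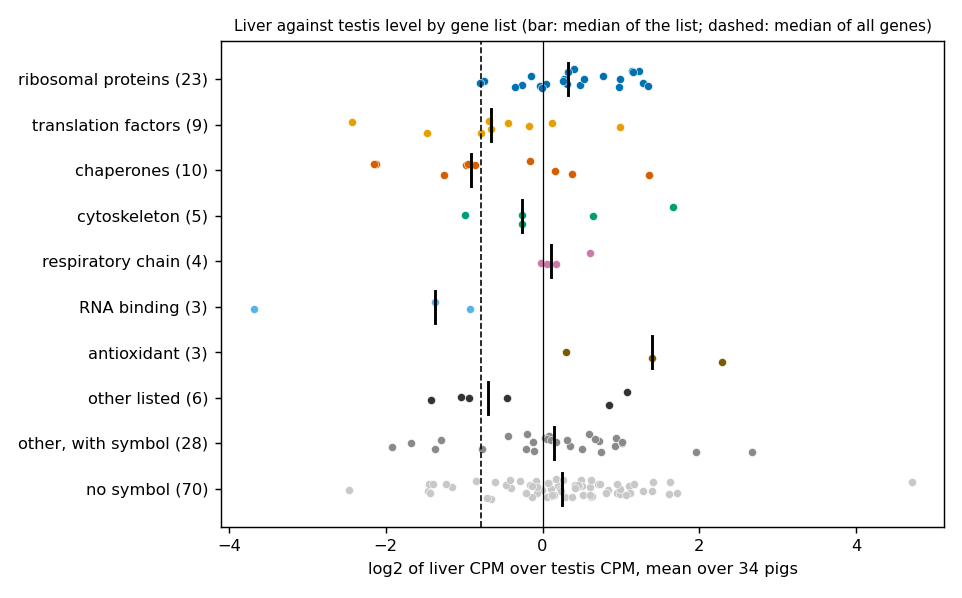
Mean log2 ratio of liver to testis CPM over 34 pigs (x axis) for each of the 161 genes, by gene list (rows, number of members in brackets). Each point is a gene, the thick bars mark the median of the list and the dashed line the median of the 11390 genes tested in both tissues, −0.79. RNA binding members and most chaperones lie left of 0, and the 3 antioxidant members lie right of 0.

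The highest ratio was that of ENSSSCG00000021208, at 4.71 ± 0.63 (median 7971 CPM in liver and 289 CPM in testis). SERPINA5, which encodes the protein C inhibitor, followed at 2.67 ± 1.22. Its liver range was 577 to 2217 CPM and its testis range 4.19 to 534 CPM, where the lowest value came from the library that stood apart and the lowest of the other 33 was 132 CPM. FTL was at 2.29 ± 0.64, PGRMC1, a haem-binding membrane protein, at 1.96 ± 0.69, and ENSSSCG00000009146 at 1.71 ± 0.70.

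The lowest ratio was that of YBX1, a Y-box protein that binds mRNA and is abundant in germ cells, at −3.69 ± 0.48. Its livers ranged from 170 to 333 CPM (median 259) and its testes from 661 to 4085 CPM (median 3440), so the ranges did not overlap, and the mean ratio corresponds to a 12.9-fold higher level in testis. The lowest testis was again the library that stood apart, and the lowest of the other 33 was 2737 CPM. ENSSSCG00000017202 was at −2.47 ± 0.38. PABPC1, which binds the poly(A) tail, was at −2.43 ± 0.42, with medians of 376 CPM in liver and 2115 CPM in testis. DNAJA1, an HSP40 co-chaperone, was at −2.15 ± 0.94, and HSP90AA1 at −2.12 ± 0.89. All of these stayed below 0 with TMM factors.

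The members nearest to equal levels were RPS9 (−0.01 ± 0.50), ENSSSCG00000005169 (−0.01 ± 0.40), COX5B (−0.01 ± 0.42), SLC25A3 (0.03 ± 0.45) and RPS18 (−0.04 ± 0.49). RPS9 and RPS18 are proteins of the small ribosomal subunit, COX5B a subunit of cytochrome c oxidase and SLC25A3 the mitochondrial phosphate carrier. COX5B had medians of 242 CPM in liver (172 to 433) and 258 CPM in testis (201 to 373), and was higher in liver in 20 of 34 pigs. With TMM factors RPS9 was at 1.05.

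Spread between animals was larger in liver than in testis for most members. The median SD of log2(CPM + 0.5) was 0.384 over livers and 0.355 over the 34 testes, and 0.223 over the 33 testes without the library that stood apart. Over the genes tested in both tissues the medians were 0.494, 0.431 and 0.324. The rule capped the SD in liver and not that in testis. Without the library that stood apart, 143 of 161 members had the larger SD in liver, and with it 96. This was not counted over all genes, whose median SD was also larger in liver, so it is not a trait of members alone. Of the genes that reached 200 CPM in testis alone, 904 were within the kit limit, and their median SD over the 33 testes was 0.212.

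Chaperones had the second widest spread in liver of the lists with 3 or more members, with a median SD of 0.529 against 0.226 in testis. HSP90AA1, the inducible cytosolic HSP90, ranged from 183 to 1305 CPM over livers (SD 0.78) and from 1146 to 2207 CPM over testes (SD 0.19, or 0.16 without the library that stood apart). DNAJA1 had an SD of 0.75 over livers and 0.35 over testes, or 0.14 without the library that stood apart. HSPA5, the chaperone of the endoplasmic reticulum also called BiP, had 0.73 and 0.19. YBX1 had an SD of 0.18 in liver and 0.42 in testis, which fell to 0.11 without that library. Ribosomal protein members had medians of 0.307 over livers and 0.438 over testes, but 0.226 over the 33 testes without that library, where 20 of 23 had the larger SD in liver.

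**Figure D3:**
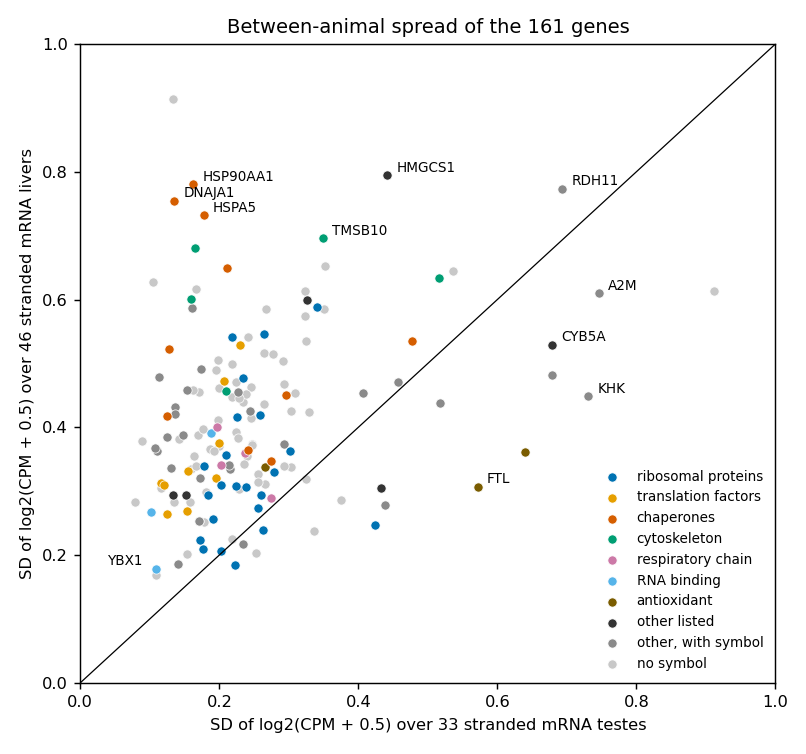
SD of log2(CPM + 0.5) of each of the 161 genes over 33 stranded mRNA testes, without the library that stood apart (x axis), and over 46 stranded mRNA livers (y axis), coloured by gene list. The diagonal marks equal spread, and 143 genes lie above it, HSP90AA1, DNAJA1 and HSPA5 farthest to the upper left among the named genes.

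The members with the largest SD over the 34 testes were SERPINA5 (1.07), RDH11 (0.95) and KHK (0.91). RDH11 reduces retinal and KHK phosphorylates fructose. In the library that stood apart RDH11 had 31.9 CPM and KHK 22.6 CPM, and without it the SDs of the 3 genes were 0.41, 0.69 and 0.73. The smallest SDs were those of ENSSSCG00000010203 (0.08), ENSSSCG00000013992 (0.11) and ENSSSCG00000021793 (0.12), and ENSSSCG00000010203 ranged only from 437 to 554 CPM over the testes and from 158 to 432 CPM over the livers.

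Ribosomal protein members varied together in both tissues, and they were not alone in this. In testis the other lists ranged from a higher median (antioxidant members) to a negative one (RNA binding members). Over the 46 livers the median Pearson correlation between pairs of the 23 ribosomal protein members was 0.772 (0.757 with ranks, 0.831 with TMM factors and 0.762 as deviations from the merit groups). Over the 33 testes it was 0.678 (0.784 with TMM factors), with 0.807 in batch 1 and 0.572 in batch 2. The 10 chaperones had a median of 0.614 in liver (0.366 with TMM factors) and 0.361 in testis (0.134 with TMM factors). The antioxidant members FTL, PRDX3 and SOD1 were the reverse, with a median of 0.355 in liver (0.617 with TMM factors) and 0.870 in testis (0.916), where batch 1 gave 0.773 and batch 2 gave 0.953. Translation factors had 0.201 in liver and 0.120 in testis. Respiratory chain members had 0.624 and 0.359 (0.616 and 0.633 with TMM factors). Cytoskeleton members had 0.263 and 0.165 (0.189 and 0.545 with TMM factors), and RNA binding members 0.214 and −0.422 (−0.066 and −0.262). Over all pairs of members the medians were 0.313 and 0.285 (0.352 and 0.517 with TMM factors, so that the chaperones in testis lay above the median of members on the CPM scale and below it with TMM factors), and over all pairs of the 11390 genes 0.184 and 0.0918, or −0.00268 and 0.00671 with TMM factors. With the library that stood apart, the medians over 34 testes were 0.886 for ribosomal proteins, 0.241 for chaperones, 0.798 for antioxidant members, 0.297 for translation factors and 0.289 for all members. Pairs share libraries, their depth and their RNA quality, so these values are given as a description. In bulk tissue, fewer cells of a type and less RNA per cell cannot be told apart.

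Whether a pig with a high level in liver also had a high level in testis was examined over the 34 pigs. The rule did not use this. The median correlation over members was −0.00454, against 0.00642 over the 11390 genes, and 79 of 161 were positive. Without the pig of the library that stood apart the median was 0.0664, with 109 positive, against 0.0226 over all genes. By a two-sided permutation test with 100000 permutations, no member passed an adjusted p of 0.05 (0.492% of all genes did), and 5 had an unadjusted p under 0.05, which is 3.11% of members against 5.75% of all genes. The highest was HMGCS1, the cytosolic HMG-CoA synthase of cholesterol synthesis. It ranged from 106 to 988 CPM in liver (median 225) and from 259 to 1198 CPM in testis (median 474). Its Pearson r was 0.468 (permutation p = 0.00519, adjusted 0.416) and its Spearman rho 0.488 (permutation p = 0.00368). Without the 2 pigs farthest from the median in liver r was 0.487, and it was 0.300 over pigs with testes in batch 1 and 0.690 over those in batch 2. With TMM factors it was 0.276. CLU followed with r = 0.403 (permutation p = 0.0181, adjusted 0.702) and rho = 0.447 (permutation p = 0.00848), with r = 0.413 without the 2 farthest pigs, 0.427 in batch 1, 0.404 in batch 2 and 0.213 with TMM factors. ENSSSCG00000007524 came next at r = 0.338 (permutation p = 0.0507, adjusted 0.864) and rho = 0.236 (permutation p = 0.178), and its r fell to 0.176 without the 2 farthest pigs. The other 3 members with an unadjusted p under 0.05 had negative values and are named after these were seen. KHK had r = −0.411 (permutation p = 0.0148, adjusted 0.664) and rho = −0.506 (permutation p = 0.00276), and without the 2 farthest pigs r was −0.330. ITM2B had r = −0.386 (permutation p = 0.0258, adjusted 0.786) and rho = −0.420 (permutation p = 0.0137), with r = −0.418 without the 2 farthest pigs and −0.148 as deviations from the groups of merit and batch. HSP90AA1 had r = −0.377 (permutation p = 0.0273, adjusted 0.795) and rho = −0.509 (permutation p = 0.00235), with r = −0.460 without the 2 farthest pigs. By batch of the testis (1 and 2), r was −0.335 and −0.431 for KHK, −0.534 and −0.0995 for ITM2B, and −0.606 and −0.184 for HSP90AA1. With TMM factors r was −0.401, −0.367 and −0.146.

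The study asked which genes differ with genetic merit of BT. In liver, members were lower in high than in low BT pigs where they differed. Of the 161 members 29 passed an adjusted p of 0.05 by limma and all 29 were lower in high BT, that is 18.0% of members against 3.66% of all 12198 genes tested (3.53% lower). The median log2 fold change over members was −0.21, with 135 of 161 below 0, and over all genes it was −0.07. Among the lists, 4 of 23 ribosomal protein members were lower (6 of all 28 measured), as were 1 of 9 translation factors, 1 of 4 respiratory chain members, 1 of 5 cytoskeleton members and 1 of 3 antioxidant members. None of the 10 chaperones passed. Members without a symbol, which could not be placed on a list, held 19 of the 29. The count depended on the method. With TMM factors 2 members passed, that is 1.24% of members against 1.45% of all genes, so that the larger share among members was not seen on that scale. With DESeq2 1 passed (0.26% of all genes), and with edgeR or without sample quality weights 0 (0.0082% of all genes in each). With edgeR 46 members had an unadjusted p under 0.05, without weights 53, and by limma as above 80. Of all 12198 genes 1438, 1046 and 2077 had such a p. With TMM factors the median over members was −0.12 and that over all genes 0.02.

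The 5 lowest adjusted p-values belonged to ENSSSCG00000009772, CLPX, ENSSSCG00000028850, ENSSSCG00000029642 and EEF1B2. CLPX, the unfolding subunit of a mitochondrial protease, ranged from 160 to 282 CPM in high BT livers (median 222), from 111 to 297 CPM in medium (median 250) and from 167 to 457 CPM in low (median 294). The groups overlapped, with the highest values in low BT pigs. Its log2 fold change of high against low was −0.45 ± 0.11 (SE, limma adjusted p = 0.0160), and the adjusted p lay between 0.00836 and 0.337 over the alternatives. EEF1B2, a subunit of the elongation factor that reloads eEF1A, had 517 to 1200 CPM in high (median 686), 468 to 1133 CPM in medium (median 641) and 386 to 1807 CPM in low BT livers (median 999.8). The lowest liver of all was thus a low BT liver, although the group's median was the highest. Its fold change was −0.52 ± 0.13 on the log2 scale (limma adjusted p = 0.0224, 0.0110 to 0.405 over the alternatives). The 3 members without a symbol had log2 fold changes of −0.56, −0.55 and −0.66.

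Medium and low BT livers differed in more members. Here 59 members passed, 1 higher and 58 lower in medium BT, that is 36.6% of members against 16.1% of all genes (0.935% higher and 15.2% lower). The median over members was −0.29 and over all genes −0.18. TMM factors removed most of the shift of all genes (median −0.01), left a median of −0.12 over members, and left 8 members past the threshold, 2 higher and 6 lower, against 6.13% of all genes. edgeR called 1 member (2.46% of all genes) and DESeq2 6, 4 higher and 2 lower (5.25%). Of the ribosomal protein members 10 of 23 were lower (12 of all 28 measured, and 0 with TMM factors), with 4 of 9 translation factors, 3 of 5 cytoskeleton members, 2 of 4 respiratory chain members and 1 of 10 chaperones.

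TMSB4X, which binds actin monomers, showed the largest difference of the named genes. It had 354 to 1854 CPM in medium BT (median 812), 494 to 2207 CPM in low BT (median 1389) and 662 to 3055 CPM in high BT livers (median 827). Its log2 fold change of medium against low was −0.79 ± 0.18 (SE, limma adjusted p = 0.00366), and it was −0.61 with TMM factors (adjusted p = 0.0405). EEF1B2 had the lowest adjusted p, at −0.64 ± 0.13 (limma adjusted p = 0.00229), or −0.48 with TMM factors (adjusted p = 0.0365). HMGN2, which binds nucleosomes, had medians of 258 CPM in medium (164 to 508) and 375 CPM in low BT livers (173 to 642), a log2 fold change of −0.59 ± 0.13 (limma adjusted p = 0.00242). ENSSSCG00000027637 and ENSSSCG00000016075 were at −0.65 and −0.51. CLU was the single member that was higher in medium BT. It had 1918 to 4160 CPM in medium (median 3131), 1818 to 3755 CPM in low (median 2414) and 2030 to 3625 CPM in high BT livers (median 2843), and its log2 fold change was 0.32 ± 0.11 (limma adjusted p = 0.0308), or 0.49 with TMM factors. The groups overlapped in all of these genes.

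**Figure D4:**
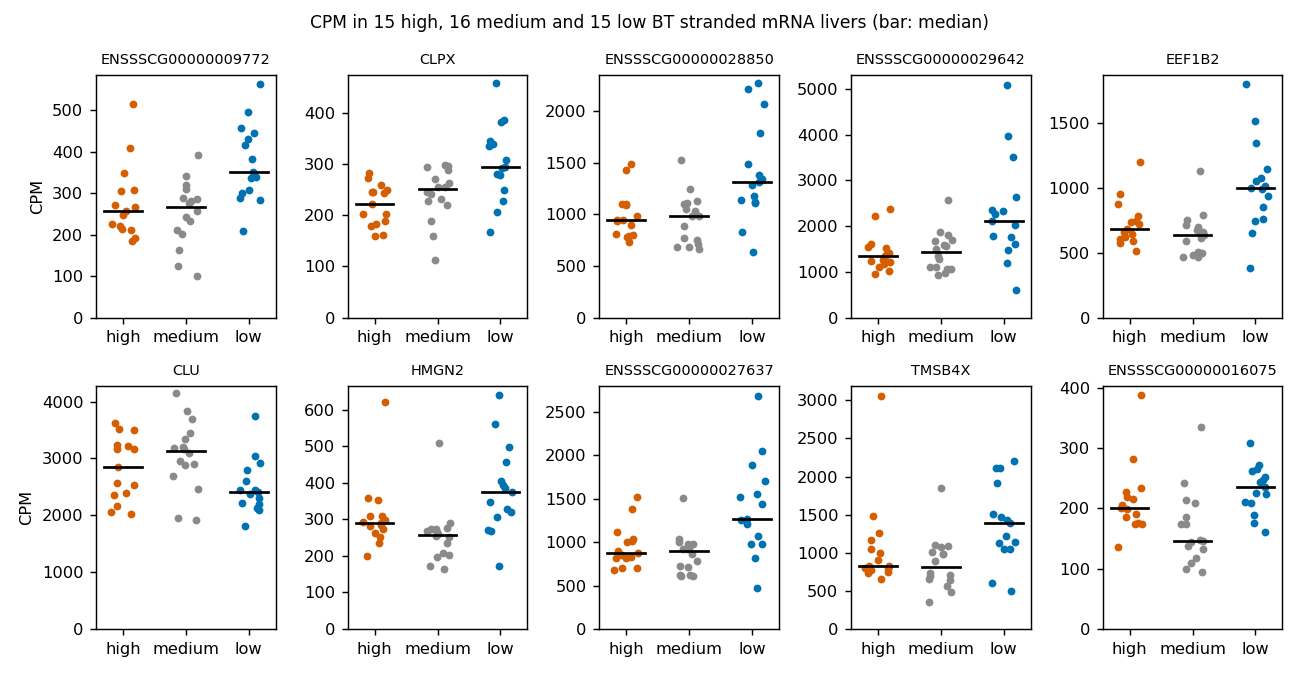
CPM (y axes, from 0) of the 10 members named in the liver comparisons, in 15 high, 16 medium and 15 low BT stranded mRNA livers (x axes). Each point is a liver and the bars mark group medians. In 9 genes the low BT group has the highest median, in CLU the medium BT group, and the groups overlap in every panel.

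Between high and medium BT livers no member passed by limma, edgeR or DESeq2. By limma 0.0984% of all genes did (0.082% higher and 0.0164% lower). An unadjusted p under 0.05 was reached by 5 members by limma, 6 by edgeR and 8 by DESeq2. Of all 12198 genes 1791, 1547 and 1672 reached it. The comparisons share their groups, so the high and medium comparisons against low are not independent of each other. The members took a median of 14.9% of the reads in low BT livers (9.42% to 20.4%), 12.4% in medium (9.11% to 15.6%) and 12.5% in high (10.7% to 17.8%). Blood and immune cell markers (11 measured) took medians of 0.258% in low (0.0966% to 0.892%), 0.181% in medium (0.0807% to 0.743%) and 0.179% in high BT livers (0.0517% to 0.430%), and hepatocyte markers 19.4%, 20.2% and 19.2%. Of the 11 blood and immune markers, 3 were lower and 1 higher in medium than in low BT and none passed in high against low. Their part in the differences between groups was not tested.

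In testis no member passed the limma test for merit in the 34 stranded mRNA libraries with batch as a covariate. For high against low, limma, edgeR and DESeq2 each called 0 members (limma 0.013% of all 15351 genes). Under an unadjusted p of 0.05 were 17 members by limma, 12 by edgeR and 14 by DESeq2, and 1750, 3407 and 2403 of all genes. The median log2 fold change over members was 0.00 against 0.09 over all genes, and the members ranged from −0.37 to 1.30. For medium against low limma called 0 members and 0% of all genes, with 21 members and 2320 of all genes under an unadjusted p of 0.05. edgeR called 12 members (11 higher and 1 lower, 16% of all genes) and DESeq2 5 (7.12% of all genes), and without the library that stood apart edgeR called 0. For high against medium limma, edgeR and DESeq2 called 0 members and 0% of all genes. Under an unadjusted p of 0.05 were 0 members by each, and 626, 219 and 256 of all genes. Within batch 1 medium against low and within batch 2 high against medium also called 0. High and low BT testes were never in the same batch, and the comparison between them rests on the medium BT testes of both. When all 48 testes were fitted without a covariate, 83 members passed for high against low, 75 higher and 8 lower, but 52.8% of all genes did too, and with batch as a covariate 2 members and 0.443% of all genes passed. The same fit without a covariate gave 55 members for medium against low, where 38.4% of all genes passed.

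The difference between high and low BT was also compared between the tissues, over the 34 pigs with both libraries. No member and no other gene passed by limma (0%), with 30 members and 2090 of all 15448 genes under an unadjusted p of 0.05. edgeR and DESeq2 called 0 members but 2.36% and 1.91% of all genes. They put 14 and 5 members, and 2784 and 2449 of all genes, under an unadjusted p of 0.05. With the pig as a block 0 members passed, with 16 members and 1934 of all genes under an unadjusted p of 0.05. The 10 chaperones had a median difference of 0.46 (testis minus liver), against 0.21 over all members and 0.25 over all genes, and with TMM factors 0.20, −0.04 and −0.01.

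Most members differed in measured level between the kinds of library in liver. Of the kit differences the rule had used only that in testis. The difference in liver was fitted on 2 total RNA livers (1 high and 1 low BT) against 46. The rule had, however, required a high level in the stranded mRNA livers, which are a side of this comparison. The choice itself may therefore push members towards lower values in total RNA, and the share of all genes is not a like background. By limma 128 of 161 members passed, 8 higher and 120 lower in total RNA, that is 79.5% of members against 44.9% of all 12225 genes (28.3% higher and 16.6% lower). The median log2 fold change was −0.92 over members and 0.10 over all genes (−1.05 and −0.02 with TMM factors). Without the high BT total RNA liver the median was −0.69 over members and 0.14 over all genes. Without the low BT total RNA liver these were −1.16 and 0.12. In each of these fits total RNA was a lone library, so only the size of the difference is given. Both total RNA livers lay below every stranded mRNA liver in 48 members, and above all of them in 0. This was not counted over all genes, and the rule had chosen members by their level in the stranded mRNA livers. Kit, batch 3 and lower RNA integrity cannot be told apart.

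The lists differed in this respect. All 23 ribosomal protein members were lower in total RNA (27 of all 28 measured), with a median of −1.20. Their median was −0.92 without the high and −1.59 without the low BT total RNA liver. All 4 respiratory chain members were lower (37 of all 44 measured, median of the members −1.47), and 3 of 5 cytoskeleton members (9 of all 20). Of the translation factors 6 of 9 were lower and 2 higher. Of the chaperones 2 of 10 were lower and 1 higher, with a median of −0.06, which was −0.36 without the high and 0.33 without the low BT total RNA liver.

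EIF1, which helps the ribosome to find the start codon, had 215 and 219.7 CPM in the total RNA livers, against 402 to 952 CPM (median 624) in the stranded mRNA livers. Its log2 fold change was −1.58 ± 0.14 (SE, limma adjusted p = 3.27e-13). The p-values of this fit take no account of the choice of members by their level in the stranded mRNA livers. COX4I1, a subunit of cytochrome c oxidase, had 91.6 and 127 CPM against 241 to 518 CPM (median 346), a log2 fold change of −1.69 ± 0.17 (limma adjusted p = 3.02e-12). RPL27, of the large ribosomal subunit, had 111 and 209 CPM against 251 to 620.1 CPM, and ARPC3, of the complex that branches actin, 51.7 and 82.3 CPM against 103 to 436 CPM. In these 4 genes, and in ENSSSCG00000005005, both total RNA livers lay below all the others. The genes passed in every alternative that kept both total RNA livers.

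Among the members higher in total RNA were A2M (1.69 ± 0.31, limma adjusted p = 1.04e-05), CANX (0.91 ± 0.22), EIF4G2 (0.79 ± 0.26) and EEF2 (0.52 ± 0.18). CANX is a chaperone of the endoplasmic reticulum, EIF4G2 an initiation factor and EEF2 the factor that moves the ribosome along mRNA. A2M had 6372 and 6586 CPM against 943 to 10337 CPM, within the range of the stranded mRNA livers. Among the alternatives that kept both total RNA livers, A2M and CANX passed in all, whereas EIF4G2 and EEF2 did not pass in all. In testis, where the rule had limited the difference, 131 of 161 members were lower in total RNA by medians, with a median of −0.27, and the ribosomal protein members had a median of −0.28.

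**Figure D5:**
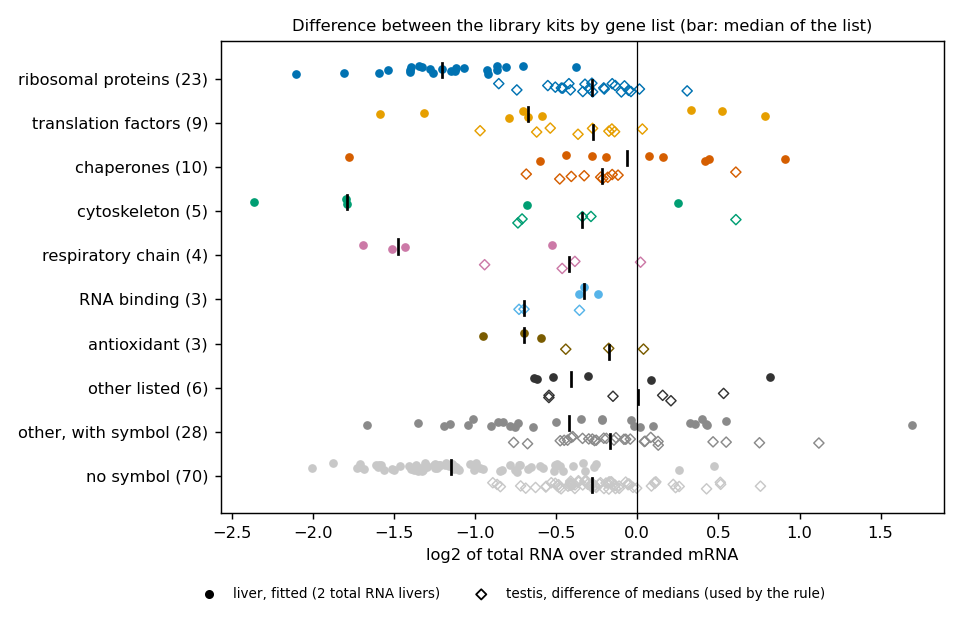
Log2 of total RNA over stranded mRNA level (x axis) for the 161 genes, by gene list (rows, number of members in brackets). Filled circles are fitted values in liver, with 2 total RNA livers against 46, open diamonds are differences of medians in testis, which the rule had limited, and thick bars mark list medians. All 23 ribosomal protein circles lie left of 0, with a median of −1.20, and the chaperone circles lie on both sides.

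The testis library that stood apart differed from the rest in most members. Of the 161 members 103 were above all 33 other testes in it, 32 were below all of them and 26 lay within their range. This was not counted over all genes, so the counts do not set members apart from other genes. All 23 ribosomal protein members were higher than the median of the others, by 0.91 to 2.92 on the log2 scale (median 2.14). TMSB4X had 4168 CPM against 155 to 541 CPM, and RPL4 3611 CPM against 314 to 672 CPM. SERPINA5 had 4.19 CPM against 132 to 534 CPM, RDH11 31.9 CPM against 224 to 1693 CPM, and CYB5A 264 CPM against 924 to 5598 CPM. Chaperones went both ways, from −1.93 to 1.73 (median −0.19). DNAJA1 had 321 CPM against 966 to 1448 CPM, and HSP90AB1, the constitutive cytosolic HSP90, 1304 CPM against 253 to 577 CPM.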

How the data were processed

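Stranded mRNA and total RNA libraries of liver and testis were sequenced by the authors, trimmed, aligned with STAR and counted per Ensembl pig gene with HTSeq 0.6.0, per the submitters' processing notes. The deposited values are raw read counts per gene, 1 table for each of 96 libraries, with no normalization. Whether the counting used strand is not given in the sources used here, so overlapping genes on opposite strands may share counts. Kit and batch were read from the deposited labels.

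CPM was computed over rows that name a gene, with a pseudocount of 0.5 on the log2 scale. Differences were fitted on counts of all genes with a mean count above 5, by limma 3.58.1 (voom with sample quality weights, library sizes without further factors) in R 4.3.3, with Benjamini-Hochberg adjustment over all genes tested and a threshold of 0.05. The study's methods also used limma with voom and sample quality weights, but on all samples of a tissue and with no covariate. The fits here differ in that they were limited to stranded mRNA libraries and, in testis, had batch as a covariate. edgeR 4.0.16 (quasi-likelihood), DESeq2 1.42.0, TMM factors, other count minimums, samples and covariates were alternatives. Liver fits held the 3 merit groups, and testis fits added batch. The scripts were tested on simulated data. Liver and testis with the same pig number came from the same animal per the labels, which pairs them. A testis library of total RNA with fewer than 5000 genes counted was left out.

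The members and gene lists were chosen with earlier results of these data known. Genes were named by fixed orders: the 10 highest in the lower tissue, the 5 highest, lowest and nearest-to-0 ratios, up to 5 lowest adjusted p in each direction of a test, the 3 largest and smallest SDs in testis and the 3 highest correlations between tissues. RPL14, RPLP2, RPL4, HSPA5, ITM2B and the members given for the testis library that stood apart were named after their values were seen. A gene that these orders name is not reported here. Symbols matched 11804 of 25322 identifiers. Pigs of a group may share a sire, and p-values treat them as independent.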

Additional observations from a re-analysis of the deposited data

Results flagged for a closer look

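In a medium BT testis library of batch 1, 4 shares of reads lay farther from the other 6 stranded mRNA libraries of its group and batch than Dixon's 95% limit allows. The 161 members took 24.1% of its reads, the ribosomal protein members 4.95%, the translation factors 1.06% and the cytoskeleton members 1.24%. Over all 33 other stranded mRNA testes these shares were 9.19% to 12.5%, 0.937% to 1.70%, 0.655% to 0.833% and 0.236% to 0.368%. Of 24 such tests 4 passed, and chance alone passes about 1 in 20 groups. All 4 were of the same library, and the list shares are parts of the share of the members. They are therefore not independent of each other. This is the library with few germ cell marker reads described above, and the part of its cell content in these shares was not tested.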

How the results depend on the processing

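The count of members lower in high than in low BT liver (29) was 2 with TMM factors, 1 with DESeq2, 4 with the 2 groups alone, and 0 with edgeR, without quality weights or without a count minimum. For medium against low BT liver (59) it was 8 with TMM factors, 6 with DESeq2, 1 with edgeR and 25 without quality weights. In testis, high against low (0) gave 1 without the batch covariate, and 2 and 83 over all 48 testes with and without batch. Medium against low (0) gave 12 with edgeR, 5 with DESeq2 and 55 over all 48 testes without batch. For the kit in liver (128) the median log2 fold change over members was −0.92. It was −0.69 without the high and −1.16 without the low BT total RNA liver. The cause of these changes was not tested. With the pig as a replicate block the comparison between tissues still gave 0 members. No other comparison was fitted with the block, since its pigs were each in 1 group.

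The rule gave 381 members at 100 CPM and 66 at 400 CPM. In total RNA livers the members took a median of 8.53% of reads. The median liver to testis ratio was 1.23 with TMM factors and −0.39 in total RNA. The median SD in testis was 0.223 without the library that stood apart. The other 81 values of such summaries stayed within their limits, which were set on size and not on direction. The balance of directions did change for medium against low BT liver. There limma called 1 member higher and 58 lower, DESeq2 4 higher and 2 lower, and edgeR 1 higher and 0 lower. Of the values of single genes under an alternative 121 kept their call, 48 missed the threshold and none changed sign. The fits with a lone total RNA liver are among these alternatives, and their calls are not a measure of stability.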
